A study of Bos indicus with 11 samples.

Results

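The abundance of 10 genes of the uterine secretion was described cow by cow in endometrial RNA-Seq: LPL, DGAT2, FABP3, GRP, MSTN, LTF, SPP1, SCGB1A1, ANPEP and CRYGS. The genes were taken by symbol from a table of 24616 gene rows, in which each symbol had a row of its own. The list was drawn from genes known to respond to progesterone in cattle, and its rule uses no measured value. It was, however, chosen with earlier results of these data known. Of the 10 genes, 8 had a mean of at least 5 normalized counts over all cows and entered the test with 15081 genes in all. MSTN and CRYGS did not reach that mean and are given as read counts.

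The biopsies came from multiparous, non-lactating, healthy Nelore cows (Bos indicus) whose oestrus had been synchronised with a prostaglandin F2α analogue and who were inseminated artificially at detected oestrus. Tissue was taken on day 6 after AI from the uterine horn opposite the ovary with the corpus luteum. Cows found pregnant on day 30 formed the P group (n = 6) and those found not pregnant formed the NP group (n = 5), so the groups were assigned after sampling and each cow was 1 replicate. All animals had been chosen for plasma progesterone within a narrow range on day 6, so neither group is a low or high progesterone group and the response of the 10 genes to the hormone cannot be examined here. A biopsy holds epithelium, stroma, vessels and at times muscle, and fewer cells of a type cannot be told apart from less RNA per cell.

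Histotroph is the mixture of proteins, lipids, ions and sugars that the uterine epithelium secretes or transfers into the lumen, and the embryo of cattle lives on it for a long period before the placenta forms. Progesterone from the corpus luteum drives the change of the endometrium towards secretion, acting first through its receptor in epithelium and stroma and later after that receptor has been lost from the epithelium. The 10 genes cover lipid supply (LPL, DGAT2, FABP3), signalling peptides and ligands (GRP, MSTN), secreted proteins (LTF, SPP1, SCGB1A1), a membrane peptidase (ANPEP) and a crystallin (CRYGS).

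Between 9290949 and 13569085 reads fell on genes in each cow, with a median of 11559415 in P and 10851407 in NP, and no libraries were identical. Cow P617 stood apart in its markers: the summed normalized count of 11 epithelial marker genes was 2753, against 10623 to 29155 in the other P cows and 13021 to 18727 in NP. Its 6 smooth muscle markers summed to 247260, followed by 197682 in P1541 and 118481 in NP638, whereas the P median was 79978 and the NP median 22618. A supplementary list of the study names P617 as non-pregnant, while its label says pregnant. It was kept in P. The log2 fold changes, NP over P, of the 8 genes tested without P617 were -0.32 for LPL, 0.56 for DGAT2, 0.13 for FABP3, -0.52 for GRP, -1.42 for LTF, 0.27 for SPP1, -2.61 for SCGB1A1 and -0.12 for ANPEP, to be set beside the values with all cows below.

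None of the 10 genes passed the test between P and NP cows. With limma on log2(normalized count + 1) and Benjamini-Hochberg adjustment over all genes tested, no gene of the table had an adjusted p under 0.1, so the background share of calls was 0%, and the smallest adjusted p was 0.147. At an unadjusted p under 0.05, limma gave 1182 genes, which is 7.84% of those tested. The quasi-likelihood test of edgeR on the recovered reads also called 0 genes, with 1151 at an unadjusted p under 0.05. DESeq2 called 201 of 14981 genes, a share of 1.34%, with 1470 at an unadjusted p under 0.05, and SCGB1A1 was its 1 call among the 10 genes. LTF and SCGB1A1 had an unadjusted limma p under 0.05, both with the higher level in P, a direction and threshold met by 2.35% of all genes tested. SCGB1A1 entered the test only through its P cows, as its NP mean alone was under 5 normalized counts. No gene of the 10 separated the groups completely, as 1.09% of the tested genes did. Because the cows vary, the fold changes below are read with their intervals.

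**Figure D1:**
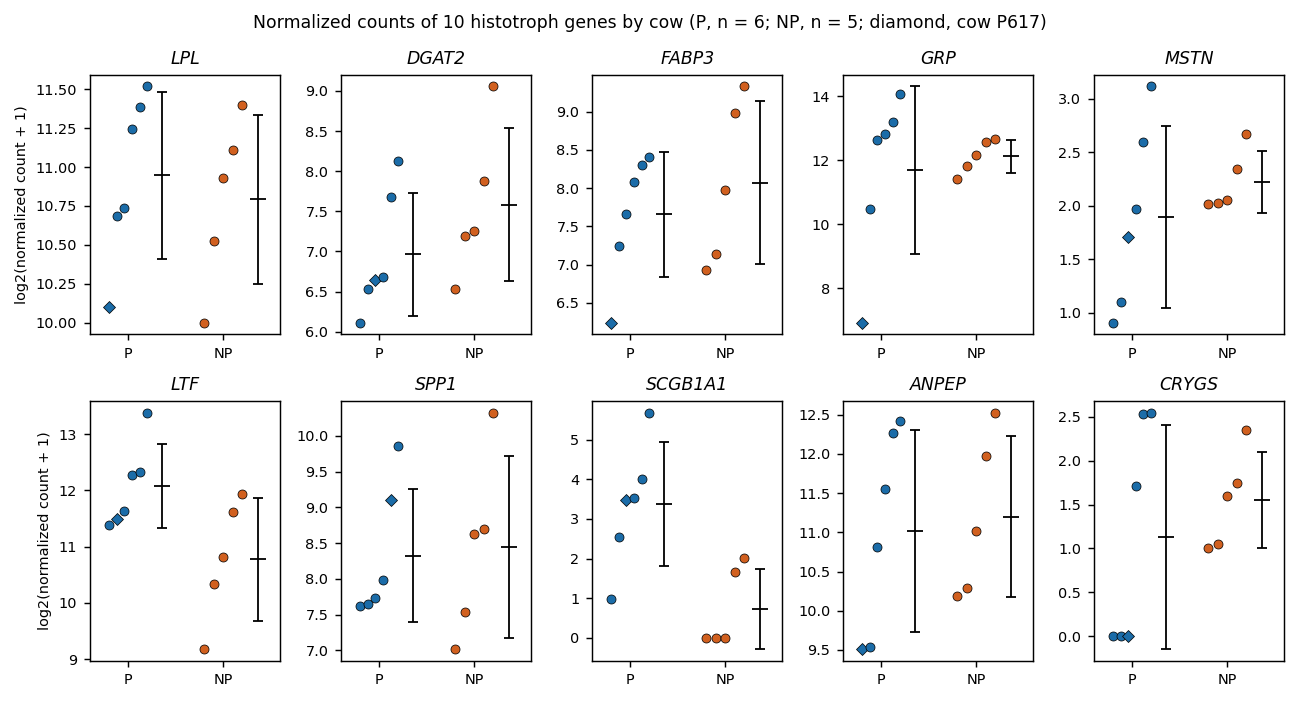
Each panel plots 1 gene, with log2(normalized count + 1) on the vertical axis on a scale of its own, 1 point per cow, P in blue and NP in orange, the diamond marking cow P617 and the bars the mean ± SD of the log2 values. LTF and SCGB1A1 lay mostly higher in P, the point of P617 for GRP lay far under all others, and in every panel the ranges of P and NP overlapped.

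Among the lipid genes, LPL (ENSBTAG00000012855) encodes the lipase that frees fatty acids from the triglycerides of circulating lipoproteins. Its level ran from 1097 normalized counts in P617 through a median of 2068 to 2933 in P1631 among P cows. The NP cows had 1023, 1474, 1946, 2211 and 2696 normalized counts. All NP cows but NP2810, the lowest, lay within the P range. The means were 2081 ± 707 (SD, n = 6) in P and 1870 ± 648 (SD, n = 5) in NP. For LPL the log2 fold change, NP over P, was -0.15 with a 95% interval of -0.80 to 0.49 (limma, unadjusted p = 0.613). Of the 8 genes tested, LPL was the 1 whose whole interval lay within a log2 change of 1 in either direction. LPL overlaps a long non-coding RNA gene in the RefSeq annotation of a Bos indicus assembly, which is not the Bos taurus build the reads were mapped to, so some of its reads could belong to that gene if the counting did not use strand.

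DGAT2 (ENSBTAG00000001154) encodes an enzyme of the last step of triglyceride synthesis. P cows ranged from 68.3 normalized counts in P2396 to 278 in P1631, with a median of 100. NP cows had 91.7, 145, 151, 235 and 531 normalized counts. In P, 4 cows lay close together near the low end while P1631 and P1753 stood higher, and in NP the cow NP856 was far above the rest. DGAT2 had a log2 fold change of 0.62 with an interval of -0.41 to 1.64 (limma, unadjusted p = 0.212), a difference smaller than the pooled spread within groups of 0.85 on the log2 scale. Without NP856 it was 0.25. FABP3 (ENSBTAG00000016819) encodes an intracellular carrier of fatty acids. Its P levels ran from 74.6 in P617 to 337 in P1753, with a median of 236 normalized counts. Its NP levels were 121, 140, 252, 503 and 643 normalized counts, so that NP238 and NP856 lay above every P cow and the other NP cows within the P range. The log2 fold change of FABP3 was 0.42 with an interval of -0.69 to 1.53 (limma, unadjusted p = 0.429), and it was 0.10 without NP238 and 0.19 without NP856. DGAT1, which catalyses the same step as DGAT2, varied less among cows, at 244 to 380 normalized counts in P and 280 to 341 in NP.

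GRP (ENSBTAG00000004796), the gastrin-releasing peptide, is a small signalling peptide cut from a precursor and secreted by uterine glands in ruminants. The P cows held 121 normalized counts in P617, 1441 in P2396, 6401 in P1541, 7204 in P1631, 9462 in P904 and 17227 in P1753. The NP cows held 2722, 3626, 4573, 6135 and 6440 normalized counts. The P cows therefore lay on both sides of the whole NP range: 3 of them were above every NP cow and P617 and P2396 below every NP cow. The highest P cow exceeded the lowest 143-fold, or 11.96-fold without P617, whereas in NP the same ratio was 2.37. Its pooled spread within groups was 1.98 on the log2 scale, larger than in 98.5% of the genes tested, for which the median was 0.42. Without P617 that spread was 1.01, larger than in 90.2% of the genes.

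For GRP the direction depended on the scale. The mean was 6976 ± 6153 (SD, n = 6) in P and 4699 ± 1595 (SD, n = 5) in NP, 1.48 times higher in P, while the log2 fold change, which averages logs, was 0.43 towards NP with an interval of -1.88 to 2.75 (limma, unadjusted p = 0.690). Without P617 the log2 fold change was -0.52, towards P. In P617 the gland markers FOXA2, SPINK1 and PAX8 summed to 40.7 normalized counts, against an NP range of 384 to 488 and a P median of 547, and the epithelial markers were also at their lowest. With the epithelial marker score of each cow as a covariate the log2 fold change of GRP was 0.07. GRPR, the receptor of the peptide, had at most 5 reads in any cow. No read of NMBR, the receptor of the related peptide NMB, was counted in any cow. A count of 0 in 1 library taken alone allows up to 3 reads, and 0 in all 11 allows fewer per library on average.

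MSTN (ENSBTAG00000011808), the TGF-β family ligand known for restraining muscle growth, was close to the lower limit of detection. It had 1 to 8 reads in each P cow and 3 to 5 in each NP cow, 20 reads in all in P and 19 in NP. In normalized counts these were 3.31 ± 2.60 (SD, n = 6) and 3.73 ± 1.01 (SD, n = 5). A difference of MSTN between the groups was not detectable at this depth. Of the genes for its receptors, ACVR2A was counted at 342 to 547 normalized counts in P and 379 to 449 in NP, and TGFBR1 at 230 to 321 and 169 to 341, with the groups overlapping for each.

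LTF (ENSBTAG00000001292) encodes lactoferrin, an iron-binding protein of secretions and of neutrophil granules. In P cows its level was 2676 normalized counts in P904, 2881 in P617, 3185 in P2396, 4931 in P1541, 5150 in P1753 and 10684 in P1631. In NP cows it was 580 in NP638, 1299 in NP238, 1796 in NP2541, 3124 in NP856 and 3914 in NP2810. The highest NP cows reached into the lower P cows, and 3 NP cows lay below every P cow. A P cow exceeded an NP cow in 25 of the 30 possible pairs, and the means, 4918 ± 3016 (SD, n = 6) in P and 2143 ± 1358 (SD, n = 5) in NP, stood at a ratio of 2.30.

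The log2 fold change of LTF was -1.31 with a 95% interval of -2.39 to -0.23 (limma, unadjusted p = 0.022, adjusted p = 0.514). A two-sided exact permutation test over the 462 splits of the cows gave an unadjusted p of 0.0346, where the smallest possible is 0.00216. The difference thus failed the adjustment over all genes. It kept its direction in every alternative fit, with a log2 fold change between -1.60 and -0.91 and an adjusted p between 0.234 and 0.848. Without NP638, the cow with the least LTF, the unadjusted limma p was 0.0568, and without NP238 it was also over the threshold. The summed level of the 7 neutrophil markers in P was 21.0 to 1011 normalized counts with a median of 73.4, and in NP 53.6 to 562 with a median of 190. P617 had the highest of these sums and NP638 the highest within NP, while the granule genes MPO and ELANE were at 0 in 8 cows each and near 1 normalized count in the rest.

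SPP1 (ENSBTAG00000005260) encodes osteopontin, a secreted phosphoprotein that binds integrins. The P cows P1541, P904, P1631 and P2396 had 196, 200.2, 212 and 251 normalized counts, and P617 and P1753 had 547 and 927. The NP cows had 129 in NP2541, 184 in NP238, 396 in NP2810, 414 in NP638 and 1282 in NP856. In P, 4 cows lay close together and within the NP range, and both the lowest and the highest level were found in NP. SPP1 had a log2 fold change of 0.12 with an interval of -1.18 to 1.41 (limma, unadjusted p = 0.847), and it was -0.35 without NP856.

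SCGB1A1 (ENSBTAG00000032918) encodes uteroglobin, a small secretory protein of airway and uterine epithelium. The P cows had 44 reads in P1631, 15 in P1753, 12 in P2396, 9 in P617, 5 in P1541 and 1 in P904. Of the NP cows, NP238 had 3 reads and NP856 had 2, and NP2541, NP2810 and NP638 had 0, which allows up to 3 reads each. In normalized counts the means were 15.3 ± 17.8 (SD, n = 6) in P and 1.04 ± 1.45 (SD, n = 5) in NP. The gene was scarce in every cow, but 5 P cows lay above every NP cow, and P904 overlapped with NP. It passed the filter on low values only through the P cows, since its NP mean alone was under 5.

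The 86 reads of SCGB1A1 in P and the 5 in NP gave a ratio per size factor of 14.9 with a 95% interval of 6.13 to 46.9, which covers counting error only. Without P1631, which held 44 of the 86 reads, the ratio was 8.50 with an interval of 3.37 to 27.5. Because SCGB1A1 passed the filter only through the P cows, its ratios and p-values describe it and are not further support. The log2 fold change was -2.63 with an interval of -4.35 to -0.92 (limma, unadjusted p = 0.00583, adjusted p = 0.371), and the two-sided exact permutation test gave an unadjusted p of 0.0152. As the NP cows were near 0, this value depends on the pseudocount, being -3.20 with 0.5 and -1.42 with 5. DESeq2 gave an adjusted p of 0.0804 and edgeR one of 0.446, so the call rested on the tool. Among the limma fits, only that without P904, the P cow with 1 read, called SCGB1A1, at an adjusted p of 0.0858. P904 alone among the P cows overlapped with NP, so leaving it out had to end the overlap. In that fit 171 genes of the table were called, 1.13% of those tested, and 3.23% had no overlap between groups. Over all alternatives its adjusted p ranged from 0.0804 to 0.716. The P cow with the most SCGB1A1, P1631, had the highest sum of epithelial markers, 29155, and P617, with the lowest sum, had 9 reads. With the epithelial marker score as a covariate the log2 fold change was -2.71 (limma, adjusted p = 0.168). The part of cell make-up in the SCGB1A1 values was not tested beyond this covariate.

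ANPEP (ENSBTAG00000016881) encodes aminopeptidase N, a membrane enzyme that trims peptides at the cell surface. P cows had 730 normalized counts in P617, 739 in P1541, 1793 in P2396, 3005 in P904, 4942 in P1631 and 5479 in P1753. NP cows had 1169, 1249, 2071, 4025 and 5901 normalized counts. Levels spread about equally widely in each group, and the means were 2781 ± 2066 (SD, n = 6) and 2883 ± 2042 (SD, n = 5). ANPEP had a log2 fold change of 0.18 with an interval of -1.20 to 1.57 (limma, unadjusted p = 0.778). P617 and P1541, the lowest for ANPEP, were also the cows with the most smooth muscle signal and the fewest epithelial markers. Without them the log2 fold change was -0.56, again short of the test (limma, unadjusted p = 0.296). With all cows and the epithelial marker score as a covariate it was 0.0006 (limma, unadjusted p = 0.999).

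CRYGS (ENSBTAG00000003140), a crystallin best known as a structural protein of the lens, was close to 0. It had 0 reads in 3 P cows, at most 5 in the others and 12 in all, against 1 to 4 reads in each NP cow and 11 in all. The means were 1.99 ± 2.36 normalized counts (SD, n = 6) in P and 2.11 ± 1.25 (SD, n = 5) in NP. No difference was detectable at this depth. CRYGS too overlaps a long non-coding RNA gene in that RefSeq annotation, which bears on whose reads these few are.

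**Figure D2:**
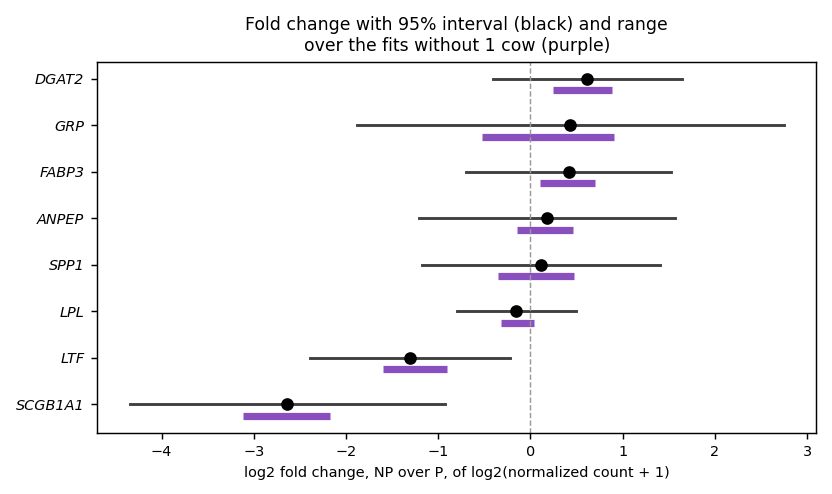
The horizontal axis is the log2 fold change, NP over P, of log2(normalized count + 1) for the 8 genes tested, with the point as the limma estimate, the black line its 95% interval and the purple line the range over the fits that left out 1 cow each. The black lines of LTF and SCGB1A1 lay below 0 and those of the other 6 genes crossed it, and the purple lines of LPL, GRP, SPP1 and ANPEP also crossed 0.

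Across the 8 genes tested, 5 had a log2 fold change towards NP and 3 towards P. Their median was 0.15, beside 0.0018 over all genes tested. The intervals of 6 of the 8 spanned 0 and most were wide, so differences of 2-fold and more in either direction lay within the intervals of GRP, SPP1 and ANPEP, and 2-fold higher levels in NP within those of DGAT2 and FABP3.

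The order of the cows was not the same for each gene. P1631 was the highest cow for LPL, LTF and SCGB1A1, P1753 for GRP, NP856 for DGAT2 and SPP1, and NP238 for FABP3 and ANPEP. P1753 was among the top 3 cows for 7 of the 8 genes and P1631 for 6, while NP2541, NP2810 and NP638 were in the top 3 for none. NP856 was among the top 3 for 4 genes. P617 was the lowest cow for FABP3, GRP and ANPEP but among the top 3 for SPP1. For GRP the lowest and the highest cow were both P cows, and for SPP1 both were NP cows.

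**Figure D3:**
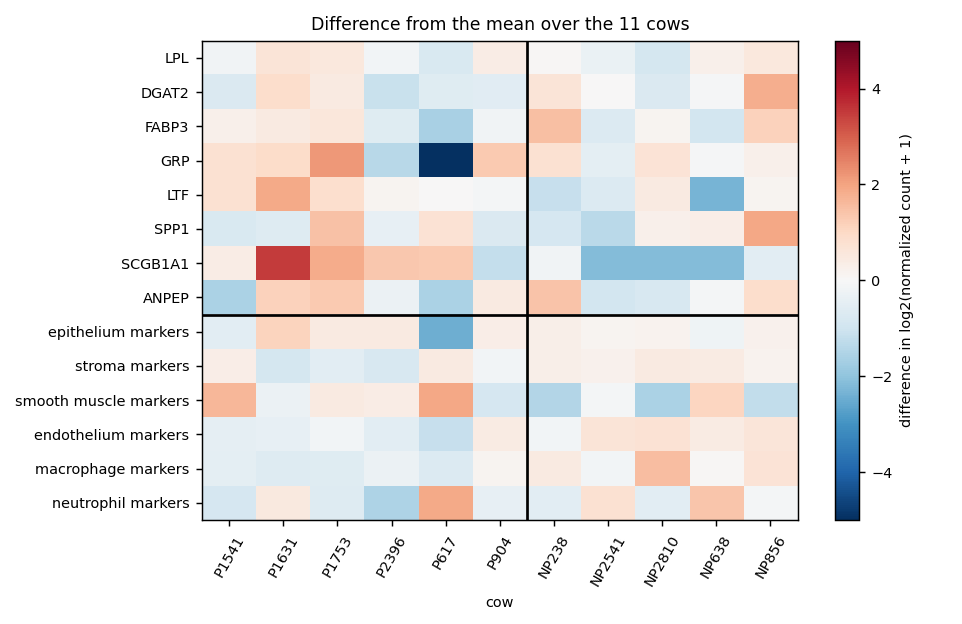
Rows are the 8 genes tested and 6 lists of cell type markers, columns are cows with P left and NP right of the vertical line, and colour gives the difference in log2(normalized count + 1) from the mean over the 11 cows, averaged over the genes of a list. The darkest blue cell was GRP in P617, the cow whose epithelial markers were also lowest, and the darkest red cell was SCGB1A1 in P1631.

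The other marker lists were set beside these values. The 8 stroma markers summed to between 96746 and 284886 normalized counts in P, with a median of 148769, and between 206947 and 280668 in NP, with a median of 239723. The 6 endothelium markers summed to 3525 to 11135 in P and 6787 to 12400 in NP, and the 6 macrophage markers to 384 to 743 in P and 583 to 1717 in NP. All 6 genes of each of these last lists had the higher mean log2 level in NP, 5 of them with an unadjusted limma p under 0.05 in each list. The 8 stroma markers were also all higher in NP, 3 of them with an unadjusted p under 0.05, whereas the 6 smooth muscle markers were all higher in P, 2 of them with an unadjusted p under 0.05. Over all genes tested, 5.49% had such a p with the higher level in NP and 2.35% with the higher level in P. Of the 11 epithelial markers, 9 were higher in NP and 1 had an unadjusted p under 0.05, while their sums had a median of 19006 in P and 17237 in NP. Lymphocyte markers, 5 of them found, summed to between 117 and 348 normalized counts in P, with a median of 208, and to a median of 299 in NP. Motile cilia markers summed to 102 to 2933 in P, lowest in P617, and 551 to 1959 in NP, with PIFO at 0 in every cow. Adipocyte markers, which matter for reading the lipid genes, summed to only 11.4 to 44.1 in P and 18.3 to 56.5 in NP, and LEP was at 0 in every cow. Skeletal muscle markers, which matter for MSTN, summed to 21.1 to 321 in P and 20.4 to 74.1 in NP, with MYH1 and MYH2 at 0 in every cow. The 1 red blood cell marker found was at most 1.14 normalized counts in a cow. The part of these cell types in the values of the 10 genes was not tested beyond the epithelial covariate.

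Genes that act with the 10 genes were described by list, and no gene of any list had an adjusted limma p under 0.1. For the lipid genes, 19 of 26 listed genes of lipid uptake and storage were tested, 13 higher in NP and 6 in P, with a median log2 fold change of 0.18. Of these, 4 had an unadjusted limma p under 0.05, all higher in NP, the direction of 828 of the 1182 such genes in the whole table, or 5.49% of all genes tested. MGLL, which splits monoglycerides, was at 140 ± 24.8 normalized counts in P and 246 ± 52.3 in NP, a log2 fold change of 0.80 (limma, adjusted p = 0.264). Its groups did not overlap, as in 1.09% of the genes tested, and it was named for its small p. APOE, an apolipoprotein that macrophages also make, was at 2260 ± 955 in P and 5367 ± 1832 in NP, a log2 fold change of 1.27 (limma, adjusted p = 0.264), and had the highest mean count of the list. ANGPTL4, which inhibits LPL, and PPARG, a nuclear receptor of fat metabolism, were the other 2, named after their values were seen, with log2 fold changes of 1.04 and 0.93.

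For MSTN, 15 of 18 listed pathway genes were tested, 10 higher in NP and 5 in P, with a median log2 fold change of 0.15. The largest difference was that of FST, whose product follistatin binds and blocks myostatin and activins, at 243 ± 294 normalized counts in P and 796 ± 286 in NP. Its log2 fold change was 2.45 with an SE of 0.71 (limma, unadjusted p = 0.00487, adjusted p = 0.364). The groups overlapped for FST, at 24.0 to 812 normalized counts in P and 503 to 1259 in NP. FST was named for its small p. Of all genes tested, 5.49% had an unadjusted p under 0.05 with the higher level in NP. TLL1, a protease that releases latent myostatin, was at 8.66 ± 4.07 in P and 17.1 ± 7.10 in NP (limma, adjusted p = 0.639), and SMAD4, the shared signal carrier of the family, at 2308 ± 381 and 2110 ± 195 (limma, adjusted p = 0.857).

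For GRP, 4 of 8 listed genes of related peptides and peptide processing were tested, 1 higher in NP and 3 in P, with a median log2 fold change of -0.50. NMB, a peptide of the same family, ranged from 1001 to 28119 normalized counts in P and from 285 to 11806 in NP (limma log2 fold change -1.30, adjusted p = 0.799). PAM, the enzyme that amidates such peptides, was at 3413 ± 1456 in P and 3718 ± 639 in NP.

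For SPP1, 11 of 13 listed integrins and proteases were tested, 5 higher in NP and 6 in P, with a median of -0.05. ITGA9, a receptor chain for osteopontin, was at 199 ± 30.6 normalized counts in P and 263 ± 46.5 in NP (limma, unadjusted p = 0.0269, adjusted p = 0.546). An unadjusted p under 0.05 with the higher level in NP was met by 5.49% of all genes tested. ITGA5 was at 1309 ± 479 and 1733 ± 234, and ITGB1, their common partner chain and the gene with the highest mean count of the list, at 14735 ± 6644 and 11855 ± 1437. For ANPEP, all 9 listed peptidases were tested, 5 higher in NP and 4 in P, with a median of 0.01 and none with an unadjusted p under 0.05. ERAP1 had the smallest of these p-values, at 275 ± 81.7 in P and 374 ± 88.8 in NP (limma, adjusted p = 0.691), followed by NPEPPS at 1795 ± 199 and 1651 ± 123, and LAP3 had the highest mean count, at 1905 ± 577 and 1767 ± 351.

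Of 35 other secretory genes of the endometrium, 28 were tested, 17 higher in NP and 11 in P, with a median log2 fold change of 0.09. The 4 with an unadjusted p under 0.05 were all higher in NP, as were 828 of the 1182 such genes in the whole table, or 5.49% of all genes tested. LGALS9, a galectin, was at 505 ± 168 normalized counts in P and 836 ± 249 in NP (limma, adjusted p = 0.467). IGFBP2, a binding protein of insulin-like growth factors, was at 146 ± 126 and 368 ± 97.7, a log2 fold change of 1.89 (limma, adjusted p = 0.473). RBP4, a carrier of retinol, and CTSL2, a cathepsin, were the other 2, named after their values were seen, with log2 fold changes of 0.77 and 0.74. TDGF1, with the highest mean count, was at 14703 ± 10093 and 19291 ± 7814.

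The hormone receptors and cofactors gave 15 tested of 17 listed genes, 8 higher in NP and 7 in P, with a median log2 fold change of 0.01. PGR, the progesterone receptor, had a median of 275 normalized counts in P (225 to 483) and 274 in NP (233 to 284), with a log2 fold change of -0.20 (limma, unadjusted p = 0.308). ESR1, the oestrogen receptor, ranged from 831 to 3267 in P and from 780 to 1660 in NP. NR3C1, the glucocorticoid receptor, was at 117 ± 20.6 in P and 172 ± 27.7 in NP. Its log2 fold change was 0.56 (limma, unadjusted p = 0.00726, adjusted p = 0.400). NR3C1 was named for its small p. An unadjusted p under 0.05 with the higher level in NP was met by 5.49% of all genes tested. The NR3C1 ranges did not overlap, as in 1.09% of the genes tested. The gap was narrow, as the lowest NP level was 143.727 and the highest P level 143.702 normalized counts. OXTR, the oxytocin receptor, was at 137 ± 105 and 73.8 ± 72.5 (limma, adjusted p = 0.718). PGRMC1, with the highest mean count of the list, was at 6133 ± 1641 and 6319 ± 794.

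**Figure D4:**
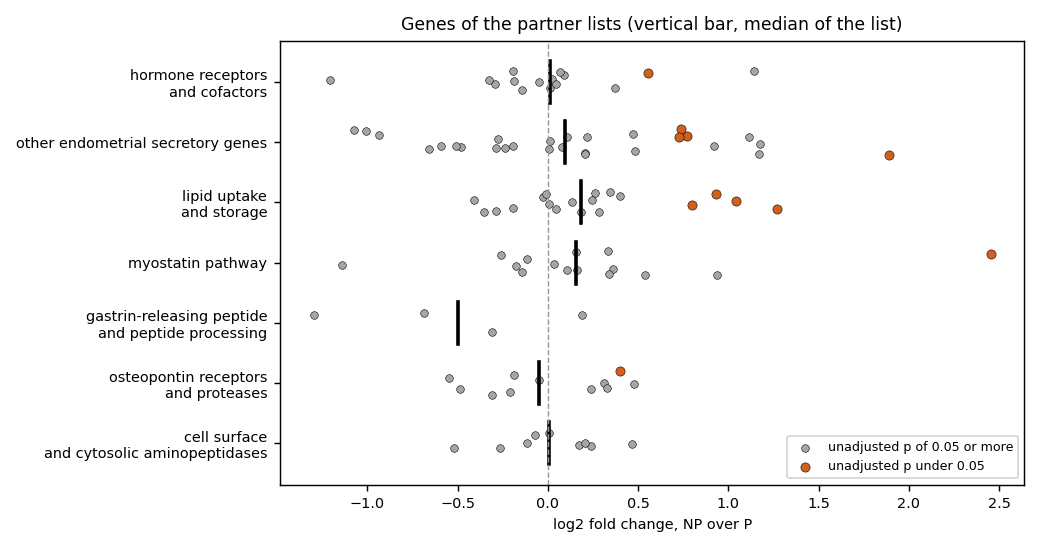
The horizontal axis is the limma log2 fold change, NP over P, of each tested gene of the 7 lists, with 1 point per gene, orange for an unadjusted p under 0.05 and a vertical bar at the median of the list. Most points lay near 0, all orange points lay to the right, towards NP, and the gene farthest to the right was FST at 2.45. Of the 1182 genes of the whole table under that p, 828 were higher in NP.

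Genes whose levels over the 11 cows were among the most like those of each gene are given by Pearson's r on log2(normalized count + 1), as a description over cows that share sequencing and tissue make-up. LPL was closest to GGA3 (r = 0.933), AP1B1 (r = 0.917) and ATP1B1 (r = 0.904). DGAT2 was closest to TOM1 (r = 0.935), TMEM141 (r = 0.928) and BAIAP2L2 (r = 0.908), and FABP3 to PCCA (r = 0.906), MRPL15 (r = 0.897) and SULT1A1 (r = 0.896). ANPEP had r = 0.945 with ADIPOR1 and r = 0.941 with CLSTN1. For GRP the closest were GANAB (r = 0.972), KLHL38 (r = 0.947) and FUT2 (r = 0.936), which fell to 0.891, 0.764 and 0.702 without P617. LTF had r = 0.900 with VPS52, r = 0.894 with CDK9 and r = 0.889 with GMCL1.

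SCGB1A1 had its highest correlations with MSLN (r = 0.906) and TMEM213 (r = 0.880). Both were, like SCGB1A1, higher in P, with log2 fold changes, NP over P, of -1.32 and -1.65. These r values therefore include the difference between the groups. SPP1 stood out by having no close companion, with r = 0.784 for DHRS7, 0.743 for RWDD2A and 0.739 for CAMTA1.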

How the data were processed

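Poly(A)-selected paired-end RNA-Seq of 11 endometrial biopsies was analysed. The authors trimmed reads with Seqyclean, mapped them to the Bos taurus build UMD3.1 and counted them per gene, and per the submitters' processing notes used CASAVA 1.8.2, Bowtie2 2.1.0, HTSeq 0.5.4p2 and DESeq2 1.12.1. Genes carry Ensembl identifiers, and the annotation release and strand setting were not given in the sources used here. The deposited signal values are counts divided by the size factor of each library, and 100% of them were whole reads within 0.001 after multiplying back. The table held no columns of the authors' own fold changes or p-values. The 10 genes and all gene lists were chosen with earlier results of these data known.

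Genes with a mean of at least 5 normalized counts over 11 cows were tested with limma 3.58.1 (lmFit, eBayes with trend, R 4.3.3) on log2(value + 1), P against NP without covariates, with two-sided p-values, Benjamini-Hochberg adjustment and a threshold of 0.1, so that fold changes of scarce genes are understated. edgeR 4.0.16 (quasi-likelihood, TMM), DESeq2 1.42.0, TMM normalization, no filter, pseudocounts of 0.5 and 5, other cow sets and an epithelial covariate were alternatives. On simulated data for the 15081 genes with 200 changed, limma recovered 44% of 2-fold and 77% of 4-fold changes. Of the calls, 8.33% were unchanged genes with limma and 30.3% with DESeq2. The 200 genes were drawn at random from all genes tested, whose median spread within groups was 0.42 on the log2 scale. The 8 genes tested here had spreads of 0.54 to 1.98, so these shares do not give the power for them. Named from each list were calls or otherwise the 2 genes with the smallest p and the gene with the highest mean count, and for each of the 8 genes tested the 3 genes with the highest correlation, some of which are not reported here. GRPR, NMBR, the myostatin receptors, DGAT1, PGR and ESR1 were added for their known roles. Marker lists were epithelium, gland, cilia, stroma, smooth muscle, endothelium, neutrophil, macrophage, lymphocyte, adipocyte, skeletal muscle and red blood cell. Where a symbol had several rows, the row with the highest mean was taken. Transcript lengths were not used, so levels are compared between cows and not ranked between genes.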

Additional observations from a re-analysis of the deposited data

How the results depend on the processing

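Over 21 alternatives, 147 of 168 fold changes of the 8 genes tested kept their direction and side of the threshold, those of LTF and DGAT2 in every one. The count of genes called was 0 in the main analysis, 201 with DESeq2, 129 with the epithelial marker score as a covariate, 17 without P617 and P1541, and 0 to 171 when 1 cow was left out, the 171 being without P904. Among the 10 genes 1 was called by DESeq2 and 0 to 1 without a cow, in each case SCGB1A1, whose log2 fold change was -3.92 with DESeq2 and -3.11 without P904. The number with no overlap was 0 to 1 and the number at an unadjusted p under 0.05 was 1 to 2 without a cow. The latter was 1 without P617, P1541 and NP638, a set chosen after seeing the data for its smooth muscle markers. GRP turned towards P with edgeR (-0.56) and DESeq2 (-0.57), with P617 counted as NP, as a supplementary list names it although its label says pregnant (-1.39), without P617 and P1541 (-0.52) and without the 3 cows (-0.45). ANPEP turned with P617 as NP (-0.40), without P617 and P1541 (-0.56) and without the 3 cows (-0.52), and FABP3 with P617 as NP (-0.17). Leaving out 1 cow gave ranges that crossed 0 for GRP (-0.52 to 0.91), ANPEP (-0.15 to 0.46), SPP1 (-0.35 to 0.47) and LPL (-0.32 to 0.044). The cause of these turns was not tested beyond the cows named. No paired analysis was possible because the P and NP cows share no replicate numbers. With 6 and 5 cows, the spread within groups limits what can be shown for GRP and SPP1, and read number for MSTN, CRYGS and SCGB1A1. Libraries come from separate cows, and all intervals on reads cover counting error only.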
